A study of Mus musculus with 6 samples.

Results

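The 10 genes described here encode the MHC class II antigen presentation machinery of the mouse, and they were taken by name from the 20649 genes of a single-cell count matrix. They are H2-Aa, H2-Ab1 and H2-Eb1, which encode chains of the I-A and I-E molecules, Cd74, which encodes the invariant chain, Ciita, which encodes the transactivator of the family, and H2-DMa, H2-DMb1, H2-DMb2, H2-Oa and H2-Ob. All 10 were found and together held 1160541 UMIs, or 0.826% of all UMIs. A UMI is a tag that marks 1 captured transcript. Levels of the 10 genes were described in 9 classes of CD45-positive cells, and their coordination with Ciita was described within each class.

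The cells came from tumors of CT26, a mouse colon carcinoma line, grown under the skin of BALB/c mice. Of the 6 tumors, 3 were injected with exoASO-Scramble, exosomes that carry a scrambled antisense oligonucleotide, and 3 with exoASO-STAT6, whose oligonucleotide targets Stat6. Every tumor received 3 intratumoral injections and was taken 24 h after the last, and CD45-positive cells were enriched before 3′ droplet sequencing. Each of the 9235 barcodes ends in a number from 3 to 8 that could not be tied to a labelled tumor, so the treatment behind each number is unknown. The numbers were treated as 6 libraries (library 3 to library 8) of 1 pooled sample, no exoASO-STAT6 to exoASO-Scramble comparison was made, and no p-values are given. Values are the median and range over libraries, or the pooled value with an exact 95% Poisson interval that covers counting error only.

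Class II molecules carry peptides from the endocytic pathway to CD4+ T cells. The invariant chain fills the groove of new α/β pairs and guides them to endosomes. There H2-DM, a pair of the H2-DMa product with a product of H2-DMb1 or H2-DMb2, exchanges the remaining invariant chain fragment for peptide, and H2-O restrains H2-DM. CIITA does not bind DNA itself but is recruited by factors that sit on the X and Y boxes of class II promoters. Constitutive class II expression is the hallmark of dendritic cells and B cells, whereas monocytes and macrophages raise it on exposure to interferon-γ.

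Of the 10 genes, 8 lie within chr17:34092340-34316674 (GRCm38, which is the mm10 build, GENCODE M21 annotation). In genomic order these are H2-Oa, H2-DMa, H2-DMb2, H2-DMb1, H2-Ob, H2-Ab1, H2-Aa and H2-Eb1, and all but H2-Aa lie on the plus strand. Ciita lies at chr16:10480059-10528418 on the plus strand. RefSeq promoter sequences of 300 bases, from 250 before to 50 after the start (GRCm38.p6), matched 7 of the members, namely H2-Aa, H2-Eb1, H2-DMa, H2-DMb1, H2-DMb2, H2-Oa and H2-Ob. The windows below are shown because they hold letters like those of the X and Y boxes described above. Each is read 5′ to 3′ on the gene's strand, with the letters of the Y box search (TGATTGG) in capitals and, before them, those of the X box search (GNAAC) in capitals.
H2-Aa, chr17:34287859-34287912, minus strand: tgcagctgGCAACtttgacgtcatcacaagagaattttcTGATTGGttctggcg
H2-Eb1, chr17:34305768-34305820, plus strand: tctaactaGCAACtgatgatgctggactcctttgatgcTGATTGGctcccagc
H2-DMb1, chr17:34153089-34153142, plus strand: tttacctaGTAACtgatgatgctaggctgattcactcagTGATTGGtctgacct
H2-DMb2, chr17:34145124-34145171, plus strand: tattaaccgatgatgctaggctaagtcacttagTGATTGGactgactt
H2-Oa, chr17:34092295-34092348, plus strand: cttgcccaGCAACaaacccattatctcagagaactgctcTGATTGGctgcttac
H2-Ob, chr17:34238810-34238860, plus strand: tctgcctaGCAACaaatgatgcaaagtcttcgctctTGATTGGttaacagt

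TGATTGG, searched on both strands, was found on the gene's strand in 6 of the 7 members, and the exception was H2-DMa, in either of its 2 listed windows. It was found in 7.82% of all 32851 promoters. GNAAC followed by TGATTGG on the same strand, with 10 to 40 bases between them, was found in 5 of the 7 members and in 0.828% of all promoters. The spacing was 26 bases in H2-Aa, H2-DMb1 and H2-Oa, 25 in H2-Eb1 and 23 in H2-Ob. The window of H2-DMb2 holds TGATTGG without GNAAC. The windows of H2-DMb2 and H2-DMb1 and both searched windows of H2-DMa lie inside the GENCODE spans of their genes, whose first listed starts are upstream. The letters were chosen after these windows had been read, and a match is a description of sequence, not evidence of binding.

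The classes were set by transcripts of other genes. Dendritic barcodes had at most 1 UMI each of Cd79a and Siglech. Mature dendritic barcodes had at least 1 UMI each of Flt3, the receptor of a dendritic growth factor, and Ccr7, a receptor for lymph node homing, and other dendritic barcodes had Flt3 without Ccr7. B barcodes had at least 2 UMIs of Cd79a, pDC (plasmacytoid dendritic cell) barcodes at least 2 of Siglech, and Ly6c2 monocytes at least 2 of Ly6c2, at least 2 of the macrophage genes Csf1r and Adgre1 together, and fewer C1q UMIs than the next class. C1q-high macrophages had at least 60 UMIs of C1qa, C1qb and C1qc per 10000, and Mmp12-positive macrophages had at least 2 UMIs of Mmp12 and 2 of Csf1r and Adgre1. A neutrophil class had at least 5 UMIs of S100a9. T/NK lymphocytes had at least 2 UMIs of Cd3 or NK receptor genes, at most 1 each of Cd79a and Siglech, and at most 1 of Csf1r and Adgre1 together. The classes held 94, 143, 82, 181, 2270, 3032, 1443, 1049 and 729 barcodes in that order. They overlap, since 1788 barcodes met 2 or more rules, and 403 barcodes lay within 5 of the C1q limit. Values are also given below for barcodes that met 1 class rule only. There, dendritic, monocyte, macrophage and S100a9 barcodes also had at most 1 UMI of the Cd3 and NK receptor genes together. B and pDC barcodes had no such limit.

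The labels were checked against marker lists. All 6 pDC markers were found in at least 89.0% of pDC barcodes, all 6 mature dendritic markers in at least 61.7% of mature dendritic barcodes, and all 7 B markers in at least 39.0% of B barcodes. The summed macrophage list was above the class's own list in several classes, in CPM (UMIs per 1000000). The sums were 15422 against 4688 for the S100a9 class, 13079 against 8019 for B, 13466 against 3989 for pDC, 9304 against 2365 for mature dendritic, 9891 against 1797 for other dendritic and 10348 against 3222 for Ly6c2 monocyte barcodes. The macrophage list is longer, with 13 genes against 6 to 8. Lyz2 alone gave 4234 CPM in Ly6c2 monocyte barcodes and 4845 CPM in the S100a9 class. Csf1r and Adgre1, both on the list, are part of the Ly6c2 rule. The sums are therefore no measure of mixing. The names state the rule and not a pure cell type, and the S100a9 class, where all 13 macrophage markers were each in at least 33.6% of barcodes, is called S100a9-high below. At least 2 UMIs of Csf1r and Adgre1 were present in 91.4% of S100a9-high, 66.9% of pDC, 62.2% of other dendritic, 53.2% of mature dendritic and 52.4% of B barcodes. The part of these transcripts in the class II levels was not tested directly, and levels are also given for the barcodes with at most 1 such UMI, called barcodes without macrophage transcripts. They were shallower, with median UMIs of 3200 against 11095 in B, 7307 against 16293 in pDC and 9192 against 16706 in other dendritic barcodes. The medians were 10104 against 16525 in mature dendritic and 6888 against 19067 in S100a9-high barcodes. A shallow barcode meets this limit more easily, and the part of depth was not tested. Fewer than 3 libraries had 10 barcodes without macrophage transcripts in most classes, so those values pool the libraries. Per library, totals ranged from 11492757 to 33902084 UMIs and medians per barcode from 7270 to 16125, and 16 barcode sequences occurred in more than 1 library.

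Among the class II chains, transcripts were most abundant in dendritic barcodes. H2-Aa, the I-A α chain, reached 5006, 5616, 6868, 5324 and 4502 CPM in other dendritic barcodes of libraries 4 to 8, in that order, with too few barcodes in library 3. In mature dendritic barcodes of the same libraries it stood at 3993, 4593, 3505, 1824 and 4829 CPM. Other dendritic barcodes were higher in 4 of the 5 libraries, all but library 8, and the 2 ranges overlapped.

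In Ly6c2 monocytes, H2-Aa stood at 3315, 2292, 2796, 1470, 1785 and 2129 CPM in libraries 3 to 8. In C1q-high macrophages it stood at 1939, 2329, 1456, 1443, 1587 and 1248 CPM. Monocytes were higher than C1q-high macrophages in 5 of 6 libraries, by a median of 1.42-fold. The folds were 0.984, 1.02 and 1.12 in libraries 4, 6 and 7, and from 1.71 to 1.92 in libraries 3, 5 and 8. Mmp12-positive macrophages (median 1792 CPM, range 1302 to 2115), S100a9-high barcodes (1651, 1122 to 1924) and pDCs (1583, 1250 to 2049) overlapped both. B barcodes held 2434, 1292, 2061 and 2850 CPM in libraries 5 to 8 and were higher than monocytes in 2 of 4 libraries.

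T/NK lymphocytes served as the class that should lack class II expression. Their H2-Aa level was 284 CPM (range 69.3 to 588), with a pooled level of 268 CPM (interval 253 to 284) in T and 123 CPM (109 to 137) in NK barcodes. For 7 members, H2-Aa, H2-Ab1, H2-Eb1, Cd74, H2-DMa, H2-DMb1 and H2-DMb2, every library of every other class lay above every T/NK library, as did 4.24% of the 7269 genes that reached 20 CPM in some class. Of these classes only T/NK was limited in Csf1r and Adgre1. With the same limit, pDC barcodes of library 5 held 316 CPM of H2-Ab1, 248 of H2-Eb1, 33.8 of H2-DMb1 and 11.3 of H2-DMb2. The T/NK maxima were 428, 294, 64.9 and 19.0, so these members no longer lay apart. H2-Aa, Cd74 and H2-DMa still did in every library with 10 such barcodes. Once each barcode was thinned to 2000 UMIs, 13.0% of T/NK barcodes (interval 10.5 to 15.7) still held an H2-Aa UMI, compared with 93.0% of other dendritic, 65.3% of Ly6c2 monocyte and 61.7% of C1q-high barcodes. Before thinning the 4 shares were 26.9%, 93.7%, 82.8% and 82.8%, at median depths of 7229, 16706, 12829 and 18676 UMIs.

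H2-Ab1 and H2-Eb1, the β chains of I-A and I-E, had the same leading classes. H2-Ab1 was highest in other dendritic barcodes (median 3277 CPM, range 2282 to 4048), followed by mature dendritic (2077, 1161 to 2407) and Ly6c2 monocyte barcodes (1341, 1018 to 2013). H2-Eb1 stood at 3043 CPM (2066 to 4065) in other dendritic, 2092 (1158 to 2238) in mature dendritic and 1146 (830 to 1817) in monocyte barcodes. The H2-Eb1 to H2-Ab1 ratio moved little between classes, from 0.799 in T/NK lymphocytes to 1.03 in mature dendritic barcodes. BALB/c mice carry other class II alleles than the mm10 reference, and reads lost to mismatches would lower these levels to an extent that was not tested.

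Cd74 gave more UMIs than any other member in each of the 9 classes. It reached 8195, 7220, 9403, 7817 and 5401 CPM in other dendritic barcodes of libraries 4 to 8 and 5888, 6077, 6250, 3238 and 6476 CPM in mature dendritic barcodes. Library 7 stood apart in the mature dendritic class, where it had 10 barcodes. Ly6c2 monocytes (median 3954 CPM, 3151 to 6001) and C1q-high macrophages (3493, 2411 to 5061) were each higher in 3 of 6 libraries. Among barcodes that met 1 class rule only, monocytes were higher in every library, with medians of 5536 (4035 to 8392) and 3701 (2911 to 5924). The UMI ratio of Cd74 to H2-Aa was 1.36 (interval 1.34 to 1.39) in other dendritic barcodes and 2.14 (2.13 to 2.16) in C1q-high macrophages. Each transcript gives 1 tag at its 3′ end whatever its length, but capture differs between genes, so a ratio of 2 genes was read across classes and not as a ratio of molecules.

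**Figure D1:**
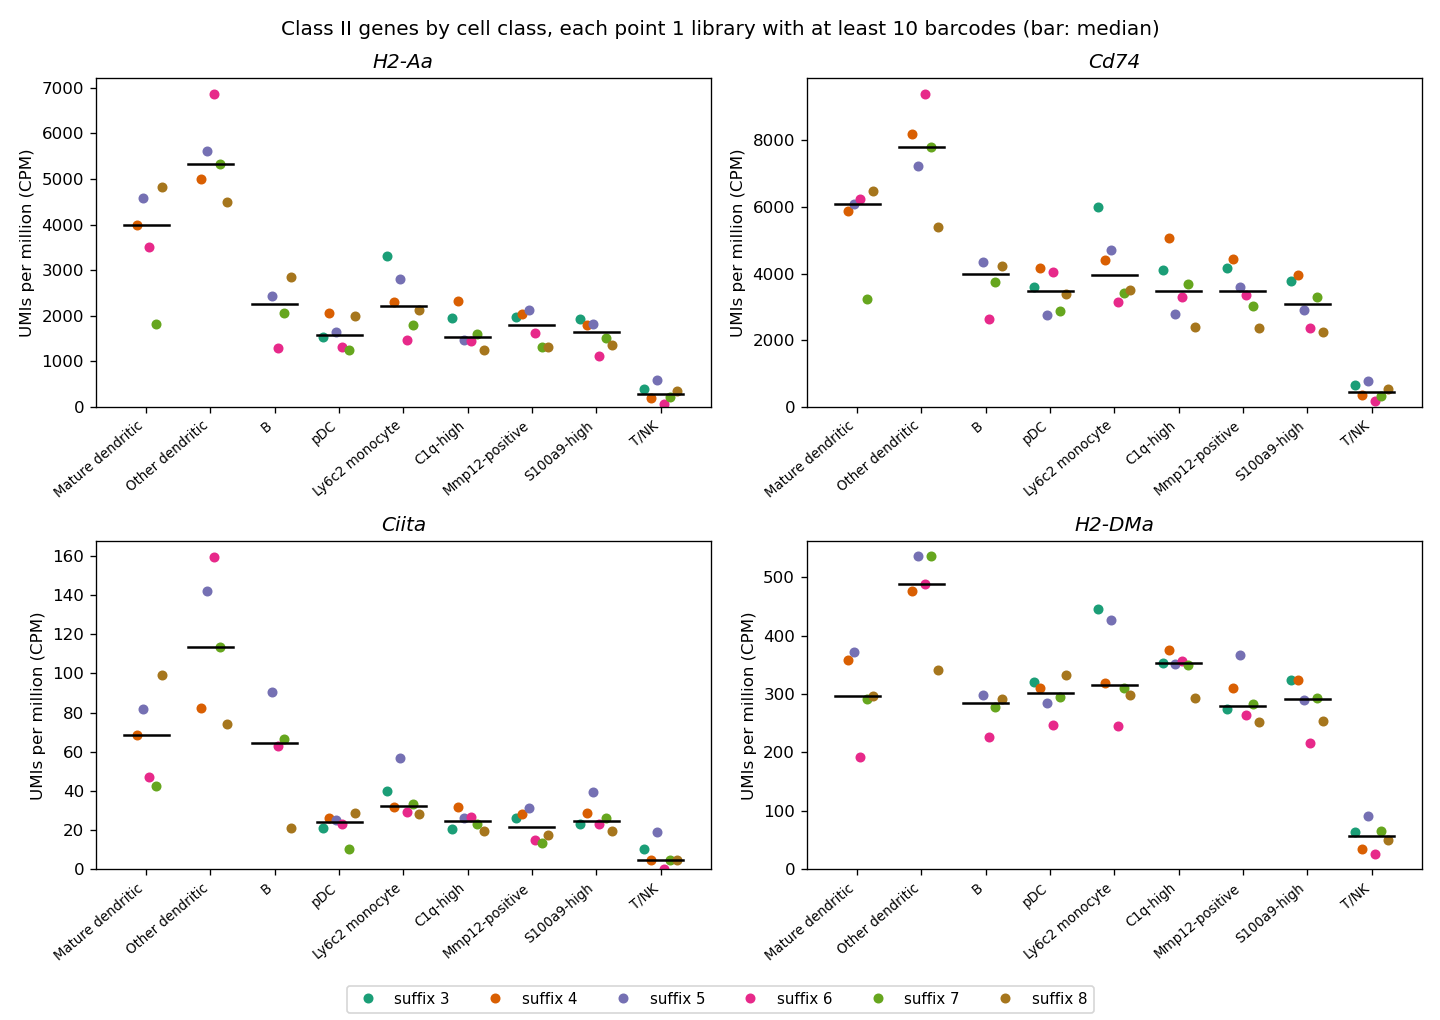
Levels of H2-Aa, Cd74, Ciita and H2-DMa in UMIs per 1000000 (y axes, linear) in 9 cell classes, where each point is 1 library with at least 10 barcodes of the class and the bar is the median over libraries. Other dendritic barcodes have the highest medians for all 4 genes, and T/NK lymphocytes the lowest.

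Ciita was a low transcript with the same leading classes. In other dendritic barcodes of libraries 4 to 8 it stood at 82.1, 142, 159, 113 and 74.0 CPM, and in mature dendritic barcodes at 68.5, 81.6, 47.3, 42.7 and 99.1 CPM. B barcodes held 90.3, 62.7, 66.3 and 20.9 CPM in libraries 5 to 8, lowest in library 8. Ly6c2 monocytes had a median of 32.5 CPM (28.4 to 57.0), and C1q-high macrophages of 24.7 (19.5 to 31.8), and monocytes were higher in 5 of 6 libraries. Other dendritic barcodes exceeded monocytes in 5 of 5 libraries, by a median of 2.61-fold.

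In T/NK lymphocytes Ciita was at 4.90 CPM (0 to 19.1), and at 2000 UMIs only 4 of 679 barcodes held it, or 0.589% (interval 0.161 to 1.5). The shares were 6.62% (5.63 to 7.73) in Ly6c2 monocytes and 21.1% (14.7 to 28.8) in other dendritic barcodes. The pooled level in barcodes without macrophage transcripts was 151 CPM (123 to 184) in other dendritic, 130 CPM (84.4 to 192) in B and 14.4 CPM (5.77 to 29.6) in pDC barcodes. Without library 5, which held 295 CPM in B, the B value was 81.2 CPM, and the other dendritic value was 112 CPM.

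Among the H2-DM genes, H2-DMa varied least between classes. H2-DMa, the α chain of H2-DM, had a median of 489 CPM (341 to 536) in other dendritic barcodes, 353 (293 to 376) in C1q-high macrophages, 315 (245 to 445) in Ly6c2 monocytes and 297 (192 to 372) in mature dendritic barcodes. Mature dendritic barcodes were above monocytes in 1 of 5 libraries for H2-DMa but in 5 of 5 for H2-Aa. C1q-high macrophages were above S100a9-high barcodes in 6 of 6 libraries for H2-DMa and in 4 of 6 for H2-Aa. The ratio of H2-DMa to H2-Aa was 0.0872 (interval 0.0825 to 0.0920) in other dendritic, 0.153 (0.150 to 0.156) in monocyte and 0.198 (0.195 to 0.201) in C1q-high barcodes. H2-DMb1 was highest in other dendritic barcodes (median 460 CPM, 255 to 531), followed by mature dendritic (203, 164 to 296), monocyte (195, 152 to 303) and C1q-high barcodes (194, 135 to 241).

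H2-DMb2, the other β chain gene of H2-DM, was highest in other dendritic and B barcodes. B barcodes held 287, 100, 110 and 175 CPM in libraries 5 to 8, and monocytes a median of 39.0 CPM (25.5 to 74.0). B exceeded monocytes in 4 of 4 libraries, by 3.25-fold to 6.89-fold. Of the 7269 genes that reached 20 CPM in some class, 10.1% were higher in B barcodes in every library compared. Of the members only H2-DMb2, H2-Oa and H2-Ob were.

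In B barcodes the H2-DMb2 to H2-DMb1 ratio was 0.919 (192 to 209 UMIs, interval 0.751 to 1.12), or 1.02 without library 3 and 1.04 without library 4, compared with 0.184 (0.174 to 0.195) in monocytes, 0.201 (0.192 to 0.210) in C1q-high macrophages and 0.341 (0.304 to 0.382) in other dendritic barcodes. Among the 39 B barcodes without macrophage transcripts it was 9.50 (95 to 10 UMIs, 4.95 to 20.4). H2-DMb1 was at 163 CPM (142 to 187) in all B barcodes and at 52.1 (25 to 95.9) in these, whereas H2-DMb2 was at 150 (130 to 173) and 495 (401 to 606). By library, the UMIs of H2-DMb2 and H2-DMb1 in these B barcodes were 4 and 0, 1 and 1, 37 and 1, 14 and 4, 9 and 0, and 30 and 4 for libraries 3 to 8. H2-DMb2 was ahead in 5 of the 6 libraries, and library 4, with 2 barcodes, was even.

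Among barcodes that met only the B rule the ratio was 3.22 (103 to 32 UMIs, 2.15 to 4.95). With 1 library left out it ranged from 2.31 to 4.95, highest without library 7, and in the B barcodes without macrophage transcripts from 6.44 to 13.5. The nearest class was that of the 44 mature dendritic barcodes without macrophage transcripts, at 0.830 (73 to 88 UMIs, 0.600 to 1.14). Library 5 alone gave 0.431 there, and without library 5 the ratio was 1.38, so that mature dendritic barcodes passed 1 as well. The 2 genes are close copies, and 22.7% of all stretches of 50 bases in H2-DMb1 transcripts also occur in those of H2-DMb2. Reads from these stretches cannot be told apart. Toward the 3′ end, where the reads fall, 27.4% of the stretches in H2-DMb1 and 0% of those in H2-DMb2 transcripts occur in the other gene, so the split of counts is uncertain.

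**Figure D2:**
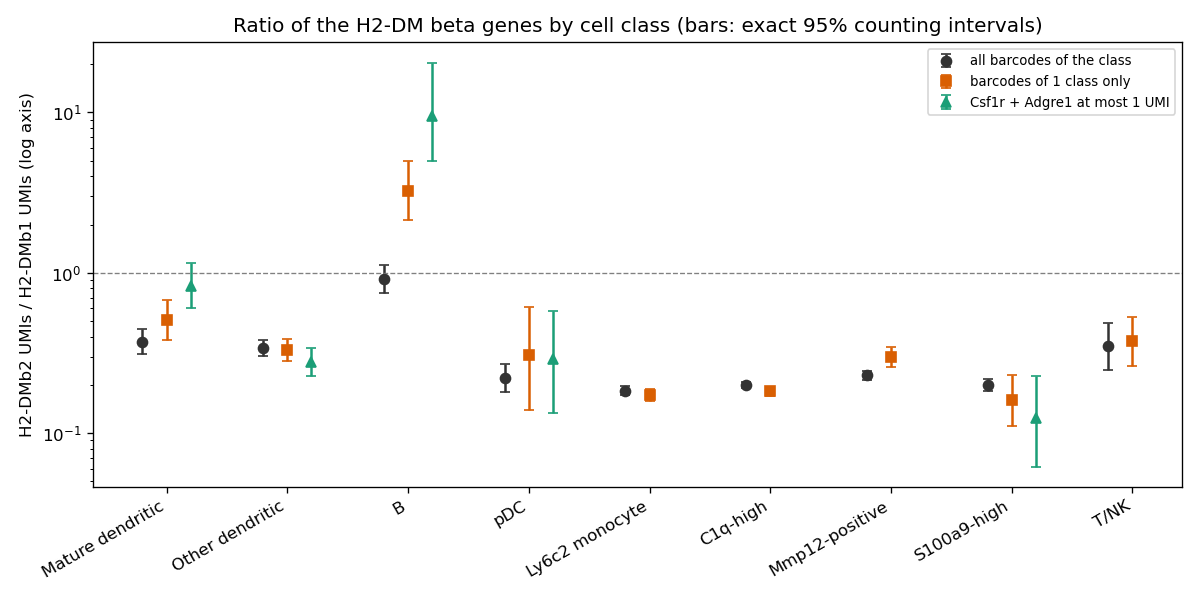
Ratio of H2-DMb2 to H2-DMb1 UMIs (y axis, log scale) in 9 cell classes for all barcodes of the class, barcodes that met only that class rule, and barcodes with at most 1 UMI of Csf1r and Adgre1, with exact 95% counting intervals. Outside B, pDC and T/NK, barcodes that met only 1 rule also had at most 1 UMI of Cd3 and NK receptor genes. B barcodes stand at 3.22 and 9.50 in the 2 restricted sets, and the highest point of another class is 0.830 in mature dendritic barcodes, which was 1.38 without library 5.

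Over all barcodes of a class, H2-Oa and H2-Ob, the α and β chains of H2-O, were highest in B barcodes and next in dendritic barcodes. H2-Oa was at 31.9, 46.0, 37.9 and 29.2 CPM in B barcodes of libraries 5 to 8, with a median of 18 (7.93 to 47.5) in other dendritic and 17.8 (12.1 to 37.9) in mature dendritic barcodes. H2-Ob was at 53.1, 20.9, 15.8 and 37.6 CPM in the same B barcodes, 17 (14.5 to 25.8) in other dendritic and 14.6 (3.56 to 18.9) in mature dendritic barcodes. Ly6c2 monocytes, C1q-high, Mmp12-positive and S100a9-high barcodes had medians from 1.45 to 2.64 CPM for H2-Oa and from 1.10 to 1.72 CPM for H2-Ob. T/NK lymphocytes held 4.54 CPM of H2-Oa (0 to 10.2), above the medians of the 4 myeloid classes, though Ly6c2 monocytes were higher in libraries 4 and 5 and S100a9-high barcodes in 3 of 6 libraries. Among barcodes that met 1 class rule only, the Mmp12-positive median was 4.86 CPM (0 to 7.65), above 3.67 (0 to 10.2) in T/NK lymphocytes. The medians of the other myeloid classes stayed below that of T/NK lymphocytes. T/NK lymphocytes held 0.338 CPM of H2-Ob (0 to 1.46), from 4 UMIs in all. At 2000 UMIs per barcode, H2-Oa was present in 13.3% (6.58 to 23.2) of B and 0.884% (0.325 to 1.91) of T/NK barcodes, and H2-Ob in 12% (5.64 to 21.6) of B and in 0 of 679 T/NK barcodes, for which the limit of a zero count is 0.442%.

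pDCs held H2-Oa with little H2-Ob. H2-Oa stood at 14.2, 11.2, 13.5, 26.7, 10.4 and 2.39 CPM in pDC barcodes of libraries 3 to 8 and exceeded C1q-high macrophages in 6 of 6. H2-Ob stood at 2.36, 3.51, 1.93, 0, 0 and 2.39 CPM. The H2-Ob to H2-Oa ratio was 0.186 (8 to 43 UMIs, interval 0.0755 to 0.400), against 1.12 (0.754 to 1.65) in other dendritic and 0.723 (0.451 to 1.15) in B barcodes. It was 0.477 (0.270 to 0.820) in mature dendritic, 0.471 (0.302 to 0.723) in S100a9-high and 0.517 (0.372 to 0.712) in Ly6c2 monocyte barcodes, and these 3 intervals overlap that of pDCs. Without macrophage transcripts the mature dendritic ratio was 1.09 (12 to 11 UMIs, 0.441 to 2.73), and the pDC ratio was 0 with an upper bound of 0.227, so these intervals did not overlap. The mature dendritic value rests on few UMIs and was 2.25 without library 8 and 0.727 without library 6. Without library 4 the pDC ratio over all barcodes was 0.111. The value in other dendritic barcodes was 0.900 without library 5. T/NK lymphocytes gave 0.121 (4 to 33 UMIs, 0.0312 to 0.341), at a lower H2-Oa level than pDCs in 5 of 6 libraries. By library the T/NK ratio ran from 0 to 0.250, highest in library 8, so it leans on single UMIs. In the 60 pDC barcodes without macrophage transcripts there were 18 UMIs of H2-Oa (36.9 CPM, 21.9 to 58.4) and 0 of H2-Ob, with an upper bound of 7.57 CPM. The 18 UMIs came from 5 of the 6 libraries, all but library 8. Without macrophage transcripts, other dendritic barcodes held 30.6 CPM of H2-Oa (18.7 to 47.2) and mature dendritic barcodes 24.2 (12.1 to 43.4). Both lay below the pDC value, with intervals that overlap.

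The summed H2-Oa and H2-Ob to H2-DMa ratio sets both chains of H2-O against the α chain of H2-DM alone, so it does not measure complexes. It was 0.210 (0.163 to 0.268) in B, 0.0992 (0.0757 to 0.128) in mature dendritic and 0.0770 (0.0629 to 0.0936) in other dendritic barcodes. It was 0.0472 (0.0349 to 0.0625) in pDCs and 0.00946 (0.00820 to 0.0109) in C1q-high macrophages. Among barcodes that met 1 class rule only, the ratio was 0.522 (0.359 to 0.751) in B, 0.163 (0.106 to 0.242) in mature dendritic, 0.0918 (0.0685 to 0.121) in other dendritic, 0.129 (0.0728 to 0.214) in pDC and 0.00541 (0.00408 to 0.00703) in C1q-high barcodes. In barcodes without macrophage transcripts it was 0.655 (0.423 to 1.0) in B, 0.202 (0.123 to 0.318) in mature dendritic, 0.107 (0.0758 to 0.147) in other dendritic and 0.131 (0.0756 to 0.216) in pDC barcodes. T/NK lymphocytes gave 0.110 (37 to 335 UMIs, 0.0764 to 0.155). Those 37 UMIs were 33 of H2-Oa and 4 of H2-Ob. The pDC value without macrophage transcripts rests on 18 UMIs of H2-Oa and 0 of H2-Ob.

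**Figure D3:**
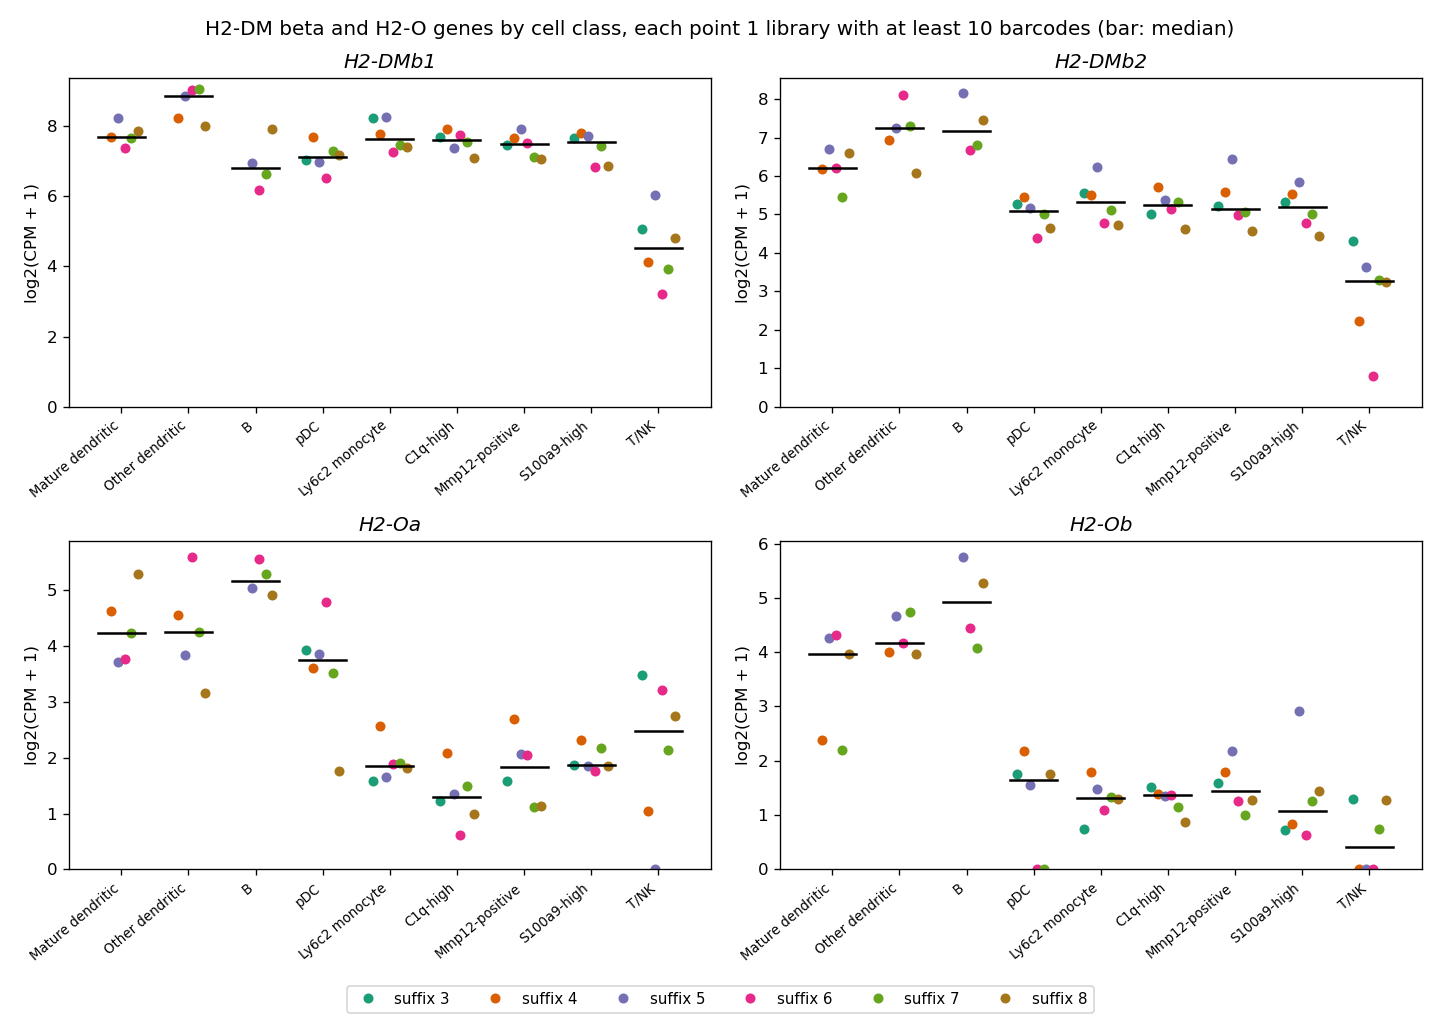
Levels of H2-DMb1, H2-DMb2, H2-Oa and H2-Ob as log2(CPM + 1) (y axes) in 9 cell classes, where each point is 1 library with at least 10 barcodes and the bar is the median over libraries. H2-DMb2 is raised in other dendritic and B barcodes, H2-Oa in B, dendritic and pDC barcodes, and H2-Ob in B and dendritic barcodes.

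Over the 10 members, other dendritic barcodes had the highest median for 8 and B barcodes for the 2 H2-O genes. Of the 7269 genes that reached 20 CPM in some class, 8.76% were highest in other dendritic and 9.33% in B barcodes. For H2-DMb2 the lead passed to B when barcodes were restricted. With 1 class rule only, pooled levels were 314 CPM (256 to 380) in B and 198 (172 to 227) in other dendritic barcodes. Without macrophage transcripts they were 495 (401 to 606) and 199 (166 to 236). Other dendritic exceeded Ly6c2 monocyte barcodes in every library compared for 10 of 10 members, as against 10.7% of the 7269 genes. Ly6c2 monocytes exceeded S100a9-high barcodes in 6 of 6 libraries for H2-Aa, H2-Ab1, H2-Eb1, Cd74 and Ciita, as against 12.9% of the 7269 genes. When each member's 9 classes were put in order of their medians, the library ranges of neighbouring classes were apart in 8 of 80 cases. Of these, 7 were the step down to T/NK lymphocytes, and the other was H2-Ob between mature dendritic barcodes and pDCs. The ranges of all other neighbours overlapped.

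Dendritic and B barcodes without macrophage transcripts held more H2-Aa and Cd74 than all barcodes of their class. H2-Aa was at 9298 CPM (9066 to 9535) in the 54 other dendritic, 5420 (5208 to 5639) in the 44 mature dendritic and 4171 (3887 to 4471) in the 39 B barcodes that remained, compared with pooled levels of 5405, 3762 and 2587 CPM in all of them. Cd74 was at 11567 (11307 to 11830), 7513 (7263 to 7770) and 7086 (6714 to 7473) CPM in the same barcodes. In pDCs H2-Aa was lower without macrophage transcripts, at 1350 CPM (1249 to 1457) against 1751 (1708 to 1795). The 90 S100a9-high barcodes without macrophage transcripts held 1546 CPM of H2-Aa (1455 to 1642).

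Among the dendritic barcodes, type 1 (other dendritic barcodes with at least 2 UMIs of Xcr1 and Clec9a, 67 barcodes) held 6074 CPM of H2-Aa (5962 to 6187) and 111 CPM of Ciita (96.2 to 127), and type 2 (Cd209a without Xcr1 or Clec9a, 29 barcodes) held 4817 (4617 to 5023) and 121 (91.3 to 158). Of the type 2 barcodes, 20 came from library 5, so the 2 types were not compared across libraries. Library 5 alone held 6427 CPM of H2-Aa and 154 CPM of Ciita in type 2 barcodes. Both lie above the pooled type 2 values, for H2-Aa beyond the counting interval and for Ciita within it, so the pooled values lean on that library.

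Class II levels varied widely inside a class. The sum of H2-Aa, H2-Ab1 and H2-Eb1 in Ly6c2 monocytes had a median of 22.9 UMIs per 10000, with the 10th percentile at 0.337 and the 90th at 142. In C1q-high macrophages the 3 values were 18.1, 0.332 and 126, and in other dendritic barcodes 99.9, 19.1 and 249. No UMI of the 3 chains was found in 9.74% of monocyte, 9.20% of C1q-high, 4.20% of other dendritic, 0% of B and 51.4% of T/NK barcodes.

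H2-Aa, H2-Ab1, H2-Eb1 and Cd74 were correlated between barcodes. At 2000 UMIs per barcode, Pearson's r of log2(UMIs + 1) in 2265 Ly6c2 monocytes was 0.824 for H2-Aa with H2-Ab1, 0.816 for H2-Aa with H2-Eb1 and 0.833 for H2-Aa with Cd74. H2-DMb1 with H2-Aa gave 0.509 and H2-DMa with H2-Aa gave 0.328. The values in 2966 C1q-high macrophages were 0.817, 0.832, 0.841, 0.522 and 0.303. Barcodes of a library share their RNA background and the rarer genes are sparse at this depth, so these values describe the barcodes and carry no test.

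Barcodes were then split by whether they held a Ciita UMI, and the other members were compared at 2000 UMIs per barcode. In Ly6c2 monocytes, 671 barcodes held Ciita and 1594 did not. H2-Aa was 2.58-fold higher with Ciita, and the ratio lay between 2.18 and 2.89 in the 6 libraries. H2-Eb1 was 2.85-fold higher (2.39 to 3.32), H2-Ab1 2.5-fold (1.90 to 2.89), H2-DMb1 2.27-fold (1.38 to 2.93), Cd74 2.20-fold (1.83 to 2.35), H2-DMb2 1.84-fold (1.28 to 2.28) and H2-DMa 1.67-fold (1.33 to 2.10). Of the 7 members with at least 50 thinned UMIs, 7 were at least 1.5-fold higher, compared with 3.81% of the 7167 genes with as many. The median over the 7 members was 2.27 and over all these genes 1.02.

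In C1q-high macrophages (797 barcodes with and 2169 without Ciita), H2-Aa was 2.98-fold higher (2.04 to 4.11), Cd74 2.55-fold (1.98 to 3.27) and H2-DMa 1.61-fold (1.36 to 1.91). Again 7 of 7 members were at least 1.5-fold higher, against 3.42% of genes. H2-Eb1, H2-Aa, H2-Ab1, H2-DMb2, H2-DMb1 and Cd74 took ranks 1 to 6 among 4060 genes with at least 200 thinned UMIs. The next were Ifitm1 (2.51-fold), an interferon-induced membrane protein gene, and Igkc (2.46-fold), an immunoglobulin light chain gene of B lineage cells. In monocytes Igkc (11.9-fold) and Ighm (3.79-fold) ranked above all members, among 3368 genes.

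In Mmp12-positive macrophages H2-Aa was 3.60-fold higher (2.64 to 4.32) and H2-DMa 2.03-fold (1.44 to 3.24), and in S100a9-high barcodes the values were 2.37-fold (1.88 to 2.69) and 1.70-fold (1.46 to 2.65). All 7 members tested were at least 1.5-fold higher in both classes, against 5.68% and 3.7% of genes. H2-DMa had the smallest ratio of the 7 in each of these 4 classes, although in monocytes without B marker or Flt3 UMIs it was H2-DMb2 (1.62) and not H2-DMa (1.85).

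Barcodes with a Ciita UMI were deeper before thinning, with a median of 15519 against 11856 UMIs in monocytes and 21803 against 17917 in C1q-high macrophages, 24836 against 17383 in Mmp12-positive and 25210 against 16768 in S100a9-high barcodes. The gap was widest in dendritic barcodes and pDCs, with 24707 against 8121 UMIs in other dendritic, 27253 against 13022 in mature dendritic and 24249 against 12536 in pDC barcodes. In the 4 myeloid classes barcodes with Ciita also held more of the 7 B markers and Flt3 together, 296 against 57.1 CPM in monocytes and 333 against 91.1 in C1q-high macrophages, and 525 against 39.0 in Mmp12-positive and 639 against 59.7 in S100a9-high barcodes. In barcodes without any UMI of these genes, H2-Aa was 2.69-fold higher with Ciita in monocytes (418 against 1163 barcodes), 3.38-fold in C1q-high and 4.20-fold in Mmp12-positive macrophages, and 2.47-fold in S100a9-high barcodes. The part of depth was not tested further, and among monocytes of 10000 to 20000 UMIs it was 2.95-fold higher.

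**Figure D4:**
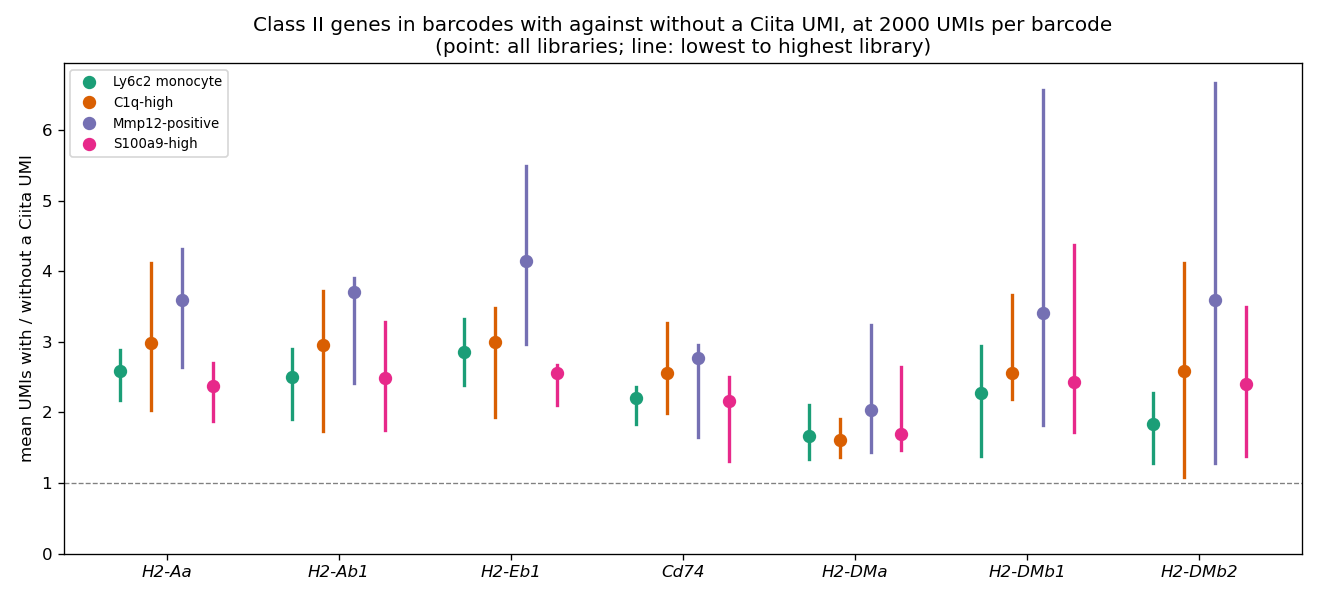
Mean UMIs of 7 class II genes in barcodes with a Ciita UMI divided by the mean in barcodes without (y axis, linear) at 2000 UMIs per barcode, in 4 myeloid classes, where the point is the value over all libraries and the line runs from the lowest to the highest library. All lines lie above 1, and H2-DMa has the smallest ratio in each class.

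The smaller classes allowed fewer statements. In other dendritic barcodes (99 with and 43 without Ciita), H2-Aa was 2.24-fold higher and H2-DMa 1.20-fold, and 5 of 6 members tested passed 1.5-fold against 9.45% of genes. Without library 5 the H2-DMa ratio was 0.788 there. In mature dendritic barcodes (43 and 50), H2-Aa was 2.92-fold higher, and 4 of 4 members passed against 13.6%. pDCs (52 and 128) gave 2.18-fold for H2-Aa, and 5 of 6 members passed against 6.55%. B barcodes (35 and 40) gave 1.20-fold for H2-Aa and 1.26-fold for Cd74, and 1 of 4 members, H2-Ab1 at 1.62-fold, passed against 5.74%. Among barcodes that met only the B rule the H2-Ab1 ratio was 1.27. B barcodes with Ciita held 12474 CPM of the B markers and Flt3, against 2534 CPM in those without. In T/NK lymphocytes 22 barcodes held Ciita, H2-Aa was 20.8-fold higher there, and 5 of 5 members passed against 20.3% of genes. B markers and Flt3 were at 79.7 CPM in the T/NK barcodes with Ciita and 25.1 CPM in the others. Most libraries had too few barcodes on one side for a value of their own in these classes.

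Across classes and libraries, log2(CPM + 1) of Ciita was compared with that of each member over 50 pools of at least 10 barcodes. Pearson's r was 0.916 for H2-Aa, 0.901 for H2-DMb2, 0.896 for H2-Eb1, 0.888 for H2-Ab1, 0.863 for Cd74, 0.810 for H2-DMb1, 0.790 for H2-DMa, 0.715 for H2-Ob and 0.435 for H2-Oa. Over the 44 pools without T/NK lymphocytes it was 0.834 for H2-Aa, 0.807 for H2-DMb2 and 0.516 for H2-DMa, all lower than over the 50 pools, and 0.610 for H2-Oa and 0.770 for H2-Ob, both higher. The pools share libraries and some barcodes, and the values are descriptions.

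Of a list of 20 genes of the pathway, 19 were in the matrix. Among them are the promoter factors Rfx5, Rfxap, Rfxank, Nfya, Nfyb, Nfyc and Creb1, the interferon-γ receptor and response genes Ifngr1, Ifngr2 and Irf1, the factors Irf4 and Irf8, the endosomal enzymes Ctss, Ctsl, Lgmn and Ifi30, and the ubiquitin ligases March1 and March8. Their highest class was other dendritic for 1 gene, March1, whose product removes class II molecules from the surface. It was C1q-high for 4 genes, mature dendritic for 4, B for 3, T/NK for 3, pDC for 2, and Ly6c2 monocyte and Mmp12-positive for 1 each. Of the 7269 genes that reached 20 CPM in some class, as the listed genes other than Rfx5 and Rfxank did, 8.76% were highest in other dendritic, 11.5% in C1q-high, 11.4% in mature dendritic, 9.33% in B, 29.6% in T/NK, 15.7% in pDC, 6.4% in Ly6c2 monocyte and 4.48% in Mmp12-positive barcodes. Nfya, a Y box factor, had medians from 19.3 CPM in T/NK lymphocytes to 46.6 in mature dendritic barcodes, and Rfxap from 19.0 in pDCs to 31.7 in B barcodes. Nfyb ran the other way from Nfya, from 21.2 in mature dendritic barcodes to 49.6 in T/NK lymphocytes. Creb1 ran from 43.6 in other dendritic barcodes to 82.6 in T/NK lymphocytes, and Nfyc from 21.0 in mature dendritic barcodes to 27.6 in pDCs. Rfx5 was highest in mature dendritic barcodes (12.1) and Rfxank lowest there (3.56).

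March1 was at 67.9 CPM (57.8 to 73.3) in other dendritic, 66.4 (44.2 to 96.2) in B and 29.4 (9.46 to 39.2) in mature dendritic barcodes. Ctss, the cathepsin that trims the invariant chain in professional antigen-presenting cells, was at 2396 CPM (2116 to 2975) in C1q-high macrophages and 1390 (958 to 1836) in other dendritic barcodes. Lgmn, an endosomal asparagine endopeptidase, was likewise at 2824 CPM (2273 to 3814) and 1680 (1207 to 1725). Ifi30, the thiol reductase of antigen processing, was at 816 CPM (569 to 1206) in mature dendritic barcodes and 55.3 (30.9 to 95.5) in T/NK lymphocytes.

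The pathway genes were compared in the same split by Ciita. In Ly6c2 monocytes, of 16 with at least 50 thinned UMIs, 0 were at least 1.5-fold higher with Ciita and 3 were as much lower. The 3 were Ctsl (0.590), Rfxap (0.619) and March8 (0.622). Of the 7167 genes with as many UMIs, 3.81% were higher and 4.31% lower. In C1q-high macrophages 0 of 16 were higher and Ctsl was lower (0.639), against 3.42% and 4.67% of genes. Irf1 was at 1.05 in monocytes and 1.12 in C1q-high macrophages. In Mmp12-positive macrophages, of 16 genes March1 was higher (1.93) and Ctsl lower (0.578), against 5.68% and 6.44% of genes. In S100a9-high barcodes, of 12 genes March1 was higher (1.53), and Nfyb (0.571), Ctsl (0.662) and Creb1 (0.664) were lower, against 3.7% and 5.47% of genes.

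The genes whose medians over the 9 classes were most like the mean of H2-Aa, H2-Ab1, H2-Eb1 and Cd74 were sought among 7269 genes. By Pearson's r of log2(CPM + 1), the first 10 outside the members were Ctdsp2 (0.985), Coro2a (0.984), Cd86 (0.976), St3gal5 (0.973), Bcl6 (0.972), Snx20 (0.969), Irf5 (0.968), Plbd1 (0.964), Hfe (0.964) and Pak1 (0.962). Cd86, a costimulatory ligand, stood at 159 CPM in mature dendritic, 142 in other dendritic and 13.2 in T/NK barcodes. The 4 genes that form the pattern had r from 0.991 to 0.999, and the other members ranged from 0.947 for H2-DMb1 and 0.940 for Ciita down to 0.367 for H2-Oa. For Ciita the members H2-DMb2 (0.971), H2-Aa (0.959) and H2-Eb1 (0.946) were among the highest, and the first 5 outside the members were Ctdsp2 (0.960), Wdfy4 (0.955), Snx20 (0.948), Bcl6 (0.943) and Mtmr14 (0.939), and Wdfy4, which serves cross-presentation in type 1 dendritic cells, stood at 351 CPM in other dendritic and 30.2 in monocyte barcodes. None of these genes was used to set the classes, and with 9 classes many genes reach high values.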

How the data were processed

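The authors deposited 1 matrix of raw UMI counts (10x Chromium 3′ v3.1), without normalization. The submitters' processing notes name mm10, Cell Ranger, Seurat 3.1.5 and R 4.0.1. The highest mitochondrial share of a barcode was 9.99%, and every column was used. The members, classes and gene lists were chosen with earlier results of these data known. Counts were summed per class and library and scaled to 1000000 (CPM), with a minimum of 10 barcodes per value. Pooled counts have exact Poisson and shares exact Clopper-Pearson intervals at 95%, for counting error only. Barcodes were thinned without replacement to 2000 UMIs, which left out 359. For likeness, genes needed 20 CPM in some class and a pseudocount of 1 was used. With 1 pooled sample, no tests were run. On simulated counts, 200 of 200 planted genes of 20649 were recovered by likeness. Named genes are the members, the pathway list, the top 10 and 5 by likeness, and leading genes of the Ciita split, which were chosen after their values were seen. Doublets were not called. Scripts used Python 3.11.15, numpy 2.4.6, scipy 1.17.1 and matplotlib 3.10.9. A gene of the pathway list is not reported here.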

Additional observations from a re-analysis of the deposited data

Results flagged for a closer look

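Over the 90 combinations of member and class, a single library lay far from the others in 7, and about 5% are expected by chance. The 6 libraries come from tumors of both treatments, which could not be told apart. In mature dendritic barcodes, library 7 was low in H2-Eb1 (1158 CPM, others 2023 to 2238) and in Cd74 (3238 CPM, others 5888 to 6476), with 10 barcodes. In B barcodes, H2-Eb1 was low in library 6 (548 CPM, others 1098 to 1177), with 11 barcodes. In pDCs, H2-Eb1 was high in library 4 (1168 CPM, others 748 to 857). H2-DMa in C1q-high macrophages was low in library 8 (293 CPM, others 350 to 376), over 590 barcodes. H2-Oa in Ly6c2 monocytes was high in library 4 (4.96 CPM, others 2.0 to 2.76), from 28 UMIs. H2-Ob in S100a9-high barcodes was high in library 5 (6.56 CPM, others 0.552 to 1.73), from 5 UMIs.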

How the results depend on the processing

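Levels were recomputed for 90 combinations of member and class, ratios for 54 and the Ciita split for 53, and where fewer than 3 libraries had 10 barcodes the pooled sum was used. Under 1 pooled sum in place of the median over libraries, 90 of 90 levels moved by less than the spread between libraries, and under each library left out 540 of 540 did. A median with 1 library left out moves only toward a neighbouring library's value, and the pooled sum draws on nearly the same libraries. These counts therefore say little about stability. Of 36 shares of barcodes with a UMI, 20 moved by more than their interval at 1000 UMIs per barcode and 22 at 5000. Of the levels, 48 of 90 moved by more than the spread when a barcode had to meet 1 class rule only, and 32 of 50 without macrophage UMIs. Stricter class thresholds moved 11 of 90, and the mean of each barcode's own CPM moved 8 of 90. A filter on barcodes, with limits of 1000 genes and 5% mitochondrial share, moved 2 of 90. With 1 class rule only, H2-Aa was at 8048 CPM in other dendritic, 3119 in B, 1148 in pDC and 3232 in Ly6c2 monocyte barcodes, and the Ciita split gave 5.19 for H2-Aa in Mmp12-positive macrophages. Without macrophage UMIs, H2-Aa was at 9298 CPM in other dendritic, 4171 in B and 1173 in pDC barcodes, the last as a median over libraries. With the mean of each barcode's own CPM it was 3358 in B barcodes. The H2-DMb2 to H2-DMb1 ratio in B barcodes crossed 1 under both restrictions, to 3.22 and 9.50, and also without library 3 (1.02) or library 4 (1.04). Leaving out 1 library at a time gave 0.742 to 1.04.

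Other ratios also crossed 1. H2-Ob to H2-Oa was 1.09 in mature dendritic barcodes without macrophage UMIs, from 0.477 in all of them, 0.931 in other dendritic barcodes of 1 class and 0.900 to 1.39 with 1 library left out, lowest without library 5, and 1.55 in C1q-high macrophages of 1 class, from 0.720. In pDCs it was 0.111 to 0.229 with 1 library left out, lowest without library 4. H2-Eb1 to H2-Ab1 in B barcodes was 0.988 without library 4 and 0.963 without library 7, with a highest value of 1.05. The H2-DMa ratio of the Ciita split was 0.788 to 1.53 in other dendritic barcodes with 1 library left out, lowest without library 5, and 0.859 in pDCs at 1000 UMIs. With 1 library left out, the H2-Aa ratio ranged from 1.67 to 2.59 in other dendritic barcodes, 2.49 to 2.68 in monocytes, 2.83 to 3.05 in C1q-high and 3.48 to 3.75 in Mmp12-positive macrophages. Chosen after seeing the data, a band of 10000 to 20000 UMIs moved 10 of 37 ratios of the Ciita split by more than the spread, with H2-Aa at 2.95 in monocytes and 4.58 in Mmp12-positive macrophages, and leaving out barcodes with a B marker or Flt3 UMI moved 0 of 33. With 1 class rule only, 9 of 47 moved. Also chosen after seeing the data, each library was left out of the restricted barcodes. In mature dendritic barcodes without macrophage UMIs, H2-DMb2 to H2-DMb1 was 0.699 to 1.38, highest without library 5, and H2-Ob to H2-Oa was 0.727 to 2.25, with 0.800 without library 5. The causes of these shifts were not tested.

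Dendritic, B and pDC barcodes were few, and H2-Oa, H2-Ob and Ciita rest on few UMIs, so their per-library values are coarse. No paired analysis was possible because the barcode suffixes match no label.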
